A study of Homo sapiens with 2 samples.

Results

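Human mitochondrial DNA encodes 13 proteins, all of them subunits of the respiratory chain or of ATP synthase, and 10 of these genes are described here: MT-ND1, MT-ND2, MT-ND3, MT-ND4 and MT-ND5 of complex I, MT-CYB of complex III, MT-CO1, MT-CO2 and MT-CO3 of complex IV, and MT-ATP6 of complex V. They were chosen by symbol from the deposited table and make up 10 of its 19826 gene rows, and all 10 were detected in both libraries. The other 3 protein genes (MT-ND4L, MT-ND6 and MT-ATP8) and the mitochondrial rRNA genes serve as comparison. The 2 single-cell libraries were made from mammospheres (floating cell spheres) of MDA-MB-231, a widely used line of triple-negative breast cancer. The metformin library came from cells kept for 30 days in flat culture with 2 mM metformin, and the control library from cells kept for 30 days without it (0 mM); both were cultured in high-glucose DMEM and then grown as mammospheres for 10 days. The labels give no genetic change in either culture. They give 1 library per dose, so no test was possible and no p-value is given. Intervals cover counting error only, at 95% confidence: they treat each UMI (unique molecular identifier, the random tag that marks a captured transcript) as a separate draw, hold no difference between cultures or library preparations, and are therefore too narrow as a measure of a metformin effect.

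Complex I passes electrons from NADH to ubiquinone, complex III passes them on to cytochrome c, complex IV hands them to oxygen, and complex V uses the resulting proton gradient to make ATP. Each of these complexes also holds subunits encoded in the nucleus, whereas complex II has nuclear-encoded subunits alone. The genes described here lie on the heavy strand of mitochondrial DNA and are cut from a long shared precursor RNA. Metformin, a biguanide used against type 2 diabetes, is known to inhibit complex I.

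After a minimum of 500 UMIs and 300 genes per barcode, the metformin library held 991 cells with 3264343 UMIs and the control library 1000 cells with 4403045 UMIs. The median depth was 2509 UMIs per cell in the metformin library and 3386 in the control library, so the metformin cells were shallower. The 10 genes contributed 124241 UMIs in the metformin library and 165234 in the control library, a median of 87 and 111.5 per cell. No cell barcode was shared between the libraries. The mesenchymal markers VIM (1596 and 3271 CPM, UMIs per 1000000 UMIs, in the metformin and control libraries) and S100A4 (2038 and 968 CPM) and the keratin KRT18 (468 and 418 CPM) were present. Of 4 leukocyte markers 3 were in the table and summed to 16.8 CPM in the metformin library and 6.13 CPM in the control library, most of it CD14 (52 and 20 UMIs), with PTPRC at 1 and 0 UMIs. The 4 fibroblast markers summed to 4.595 CPM in the metformin library and 2.27 CPM in the control library, with DCN at 10 and 1 UMIs and COL1A1 at 3 and 5. Their part in the results was not tested.

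Several of these genes overlap their neighbours on the mitochondrial DNA, which bears on how their reads can be counted. MT-ATP8 and MT-ATP6 are read from 1 mRNA, and so are MT-ND4L and MT-ND4. In the reference sequences of GENCODE release 29, the last 46 bases of MT-ATP8 are the first 46 of MT-ATP6, and the last 7 of MT-ND4L are the first 7 of MT-ND4. The ends of these 4 genes are given 5′ to 3′, with the shared bases in capitals; a read that falls only there cannot be given to 1 of the 2 genes.
MT-ATP8, last 60 bases: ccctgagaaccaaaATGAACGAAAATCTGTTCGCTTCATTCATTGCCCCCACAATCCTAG
MT-ATP6, first 60 bases: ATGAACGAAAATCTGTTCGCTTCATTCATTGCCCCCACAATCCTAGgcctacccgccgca
MT-ND4L, last 30 bases: gtacataacctaaacctactccaATGCTAA
MT-ND4, first 30 bases: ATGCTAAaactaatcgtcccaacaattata

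Levels of the 10 genes differed between the libraries by at most 1.28-fold, and in both directions. Complex I has 5 of the genes. MT-ND5, the longest of the members and a core part of the proton-pumping arm, had 1536 CPM in the metformin library and 1199 CPM in the control library, a ratio of 1.28 (1.23 to 1.33). MT-ND1, which lines the site where ubiquinone binds, had 1931 CPM in the metformin library and 1816 CPM in the control library (ratio 1.06, 1.03 to 1.10). These 2 complex I genes were the ones with a ratio above 1.

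The other complex I genes had ratios below 1. MT-ND3, the shortest of the members, had 1311 CPM in the metformin library and 1684 CPM in the control library, the lowest ratio of the 10 at 0.779 (0.750 to 0.809). MT-ND2, a proton-pumping subunit, had 1972 CPM in the metformin library and 2418 CPM in the control library (0.816, 0.791 to 0.841). MT-ND4, also a proton-pumping subunit, had 4763 CPM in the metformin library and 4931 CPM in the control library, a ratio of 0.966 (0.946 to 0.986). Complex I transcripts therefore differed in opposite directions within 1 complex, and their sum was 11514 CPM in the metformin library and 12047 CPM in the control library (ratio 0.956, 0.943 to 0.968).

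MT-CYB is the cytochrome b of complex III and its single mitochondrially encoded subunit. It had 3135 CPM in the metformin library and 3766 CPM in the control library, a ratio of 0.832 (0.812 to 0.853). The 3 genes of complex IV did not share this direction. MT-CO1, the catalytic subunit that binds oxygen, had 6757 CPM in the metformin library and 5483 CPM in the control library (ratio 1.23, 1.21 to 1.25). MT-CO3, the member with the most UMIs in both libraries, had 8244 CPM in the metformin library and 7410 CPM in the control library (1.11, 1.09 to 1.13). MT-CO2, which receives electrons from cytochrome c, had 5248 CPM in the metformin library and 5230 CPM in the control library, and the interval of its ratio included 1 (1.003, 0.984 to 1.02). MT-ATP6 of complex V, part of the proton channel, had 3163 CPM in the metformin library and 3590 CPM in the control library (0.881, 0.859 to 0.903).

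Taking a ratio of 1.5 either way as the size that counts as higher or lower, 0 of the 10 genes passed it, whereas 8.36% of the 4105 genes compared did (5.04% higher and 3.31% lower, of genes that reached 50 CPM in 1 of the libraries and 50 UMIs in all). The counting interval lay above 1 for 4 of the 10 genes and below 1 for 5, against 27.1% and 23.4% of all genes compared. The ratio itself was above 1 for 5 members and below 1 for 5, with 52.6% of all genes compared above 1. The median log2 ratio of the members was -0.02 and that of all genes compared was 0.02. With the trimmed-mean (TMM) scaling of edgeR, every log2 ratio was lower by the same amount, which placed MT-CO2 at -0.08 and MT-ND1 at 0.00; the signs of the other members held.

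**Figure D1:**
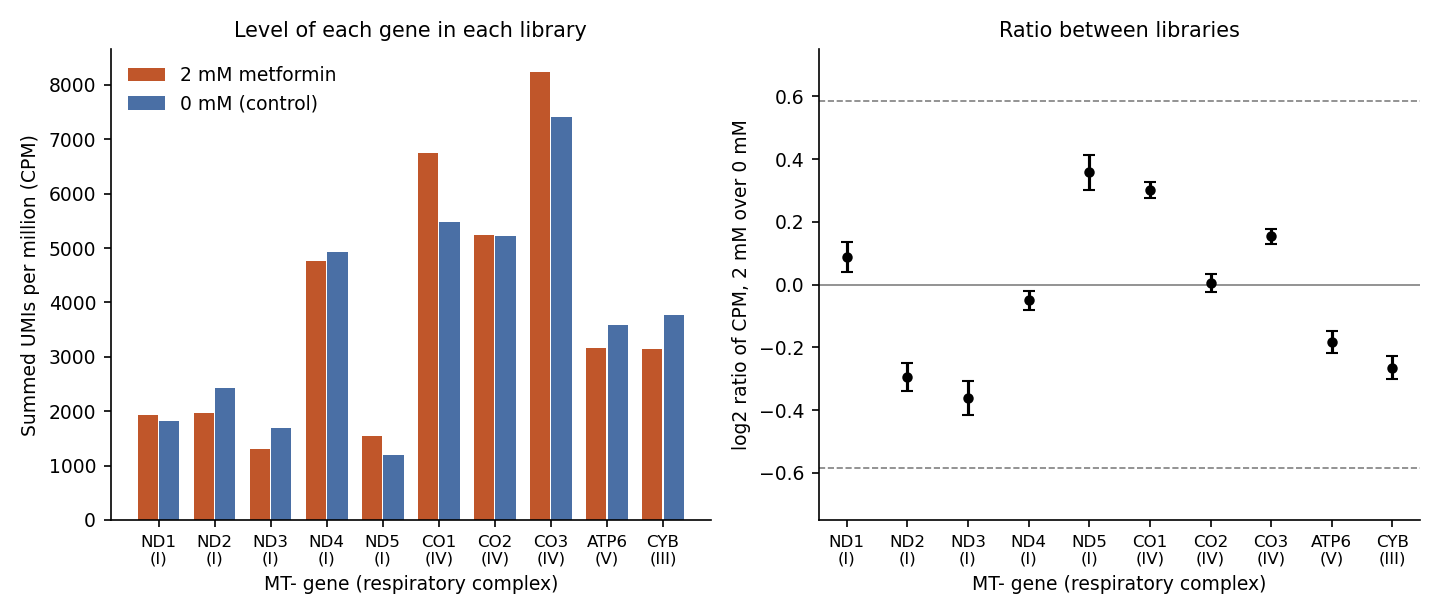
Levels of the 10 mitochondrially encoded genes. Left, summed level in CPM in the metformin library (orange) and the control library (blue); right, log2 ratio of metformin over control with its 95% counting interval, where dashed lines mark a ratio of 1.5 either way. All 10 points lie between the dashed lines, from MT-ND3 at -0.36 to MT-ND5 at 0.36, and MT-CO1 and MT-CO3 lie above 0 whereas MT-CYB and MT-ATP6 lie below it.

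Per kilobase of coding length, MT-CO3 had the highest level in both libraries (10516 CPM per kilobase in the metformin library and 9451 in the control library), followed by MT-CO2 (7672 and 7647) and MT-ATP6 (4644 and 5272). MT-ND5 had the lowest level in both (848 CPM per kilobase in the metformin library and 662 in the control library). A UMI marks a captured transcript, so counts need not grow with gene length, and these ranks rest on the division. The ranks between them were not the same in both libraries. MT-CO1 stood above MT-ND3 in the metformin library, at 4382 and 3790 CPM per kilobase, and below it in the control library, at 3556 and 4866. Without the division, MT-CO1 stood above MT-ND3 in both, at 6757 and 1311 CPM in the metformin library and 5483 and 1684 CPM in the control library. MT-ND4 (3456 CPM per kilobase in the metformin library and 3578 in the control library) was close to MT-CO1 in the control library.

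Set against each other rather than against all transcripts, the members had a different balance of complexes in the 2 libraries. Complex IV took 53.2% of the members' UMIs in the metformin library and 48.3% in the control library, a difference of 4.91 points (4.39 to 5.43). The other 3 complexes took smaller parts in the metformin library: complex I had 30.3% in the metformin library and 32.1% in the control library, complex III 8.24% and 10.0%, and complex V 8.31% and 9.57%. This measure uses the members' UMIs alone, so library scaling does not enter it. Of single genes, MT-CO1 differed most, at 17.8% of the members' UMIs in the metformin library and 14.6% in the control library. MT-CO3 followed at 21.7% in the metformin library and 19.7% in the control library. The part of MT-CO2 differed little, at 13.8% in the metformin library and 13.9% in the control library.

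The difference in complex IV was seen cell by cell as well as in the sum. Among cells with at least 100 member UMIs (449 in the metformin library and 545 in the control library), the median complex IV part was 54.5% with quartiles of 48.6% and 59.0% in the metformin library, and 48.7% with quartiles of 44.7% and 52.7% in the control library. The lower quartile of the metformin cells thus stood at the median of the control cells, and the distributions overlapped widely. Cells varied more than counting error gives: the SD of the complex IV part over cells was 7.45 points in the metformin library and 6.23 points in the control library, 1.97 and 1.75 times the SD from counting alone. Of the single genes, MT-CO1 exceeded its counting SD by the largest factor in both libraries, 2.01 in the metformin library and 2.55 in the control library.

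Together the 10 genes held 3.81% of all UMIs in the metformin library (3.79% to 3.83%) and 3.75% in the control library (3.74% to 3.77%), a difference of 0.05 points (0.01 to 0.09). With every cell weighted equally it was 0.29 points, and with cells of at most 10% mitochondrially encoded UMIs 0.02 points. The median cell had 3.78% (quartiles 2.85% and 4.79%) in the metformin library and 3.51% (quartiles 2.49% and 4.62%) in the control library. With every cell thinned at random to 1000 UMIs, which left 800 metformin and 944 control cells, the median was 37 member UMIs in the metformin library and 36 in the control library. The SD over these cells was 19.5 UMIs in the metformin library and 18.7 in the control library, against 6.19 and 6.08 expected from counting alone. Members exceeded 10% of the UMIs in 7 metformin cells and 4 control cells, and stayed under 1% in 41 metformin cells and 49 control cells.

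The 10 genes varied together across the cells with at least 100 member UMIs, though not tightly. That minimum is set on the sum of the same genes, so it can itself shape the values of pairs. Its part was not tested. Over the 45 pairs of members, the Spearman rho of their UMIs per nuclear UMI had a median of 0.39 in the metformin library and 0.37 in the control library, as a description of 449 and 545 cells in which all pairs share the same denominator. The pair of MT-ND3 and MT-CO1 was the lowest in the metformin library (-0.03) and had 0.06 in the control library, where MT-ND2 and MT-CO1 were lowest at 0.02. The pair of MT-ND1 and MT-ND2, adjacent in the genome apart from tRNA genes, had 0.51 in the metformin library and 0.48 in the control library. MT-CO1 and MT-ND4 had 0.49 in the metformin library and 0.56 in the control library.

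The summed share depended on cell depth, and not alike in the 2 libraries. Cells were placed in bins by their nuclear-encoded UMIs, so that the members did not set the bin. Among cells with 500 to 1000 such UMIs, members held 4.22% in 188 metformin cells and 3.08% in 98 control cells, a difference of 1.14 points (0.93 to 1.35). In the bin of 2000 to 4000, members held 3.96% in 301 metformin cells and 3.60% in 288 control cells (0.37 points, 0.29 to 0.44). The intervals included 0 in the bins of 1000 to 2000 (0.09 points, -0.04 to 0.22) and of 4000 to 8000 (0.04 points, -0.02 to 0.10). In the deepest bin, at 8000 and over, the order was turned round, with 3.37% in 53 metformin cells and 3.85% in 108 control cells (-0.47 points, -0.55 to -0.40). Another 21 metformin cells and 0 control cells had fewer than 500 nuclear UMIs and entered no bin.

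The shallowest bin also differed in mitochondrial rRNA. MT-RNR1 and MT-RNR2 together exceeded 10% of the UMIs in 11 of its 188 metformin cells and 53 of its 98 control cells. Over all depths they did so in 28 metformin and 60 control cells. The metformin ones outside this bin had fewer than 500 nuclear UMIs and entered no bin, whereas the bin edge left out 0 control cells. Without its rRNA-rich cells the difference in the members' share in this bin was 0.63 points (0.35 to 0.91). The shares were then 4.20% in 177 metformin cells and 3.57% in 45 control cells. All 10 members had a ratio above 1 in the whole bin, where 60.8% of the 834 genes compared did, and MT-CO1 (ratio 2.26, 2.00 to 2.56) and MT-ND5 (1.59, 1.27 to 2.00) were at least 1.5-fold higher, as were 22.2% of those genes. Without the rRNA-rich cells 7 members had a ratio above 1 and 3 below, and the members' median log2 ratio was 0.12, against 0.33 in the whole bin. The median of all genes in the whole bin was 0.15. Without the rRNA-rich cells neither this median nor the percent of all genes above 1 was computed. Whether the members stand out from other genes there was therefore not tested. With those cells left out, MT-CO1 had a ratio of 1.79 (1.54 to 2.10) and MT-ND3 one of 0.719 (0.547 to 0.953). In the deepest bin 9 of the 10 members had a ratio below 1, against 49.5% of 4201 genes compared. MT-CO2 was lowest there at 0.775 (0.742 to 0.811), with 4212 CPM in the metformin library and 5433 CPM in the control library. MT-ND5 was the member above 1 there, at 1.07 with an interval that included 1 (0.977 to 1.16).

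In contrast to the summed share, the complex IV part was larger in the metformin library in all 5 depth bins. The difference was 8.52 points in the shallowest bin (53.0% in the metformin library and 44.5% in the control library), then 7.003, 5.33 and 5.05 points. It was 1.01 points in the deepest bin (48.2% in the metformin library and 47.2% in the control library), where its interval reached from -0.09 to 2.11. The part of complex III was smaller in the metformin library in each of the 5 bins, with differences of -3.24 points at 1000 to 2000 nuclear UMIs and -0.86 points in the deepest bin. MT-ND5 was the 1 member whose ratio lay above 1 in every depth bin (1.07 to 1.59), though its interval in the deepest bin included 1.

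**Figure D2:**
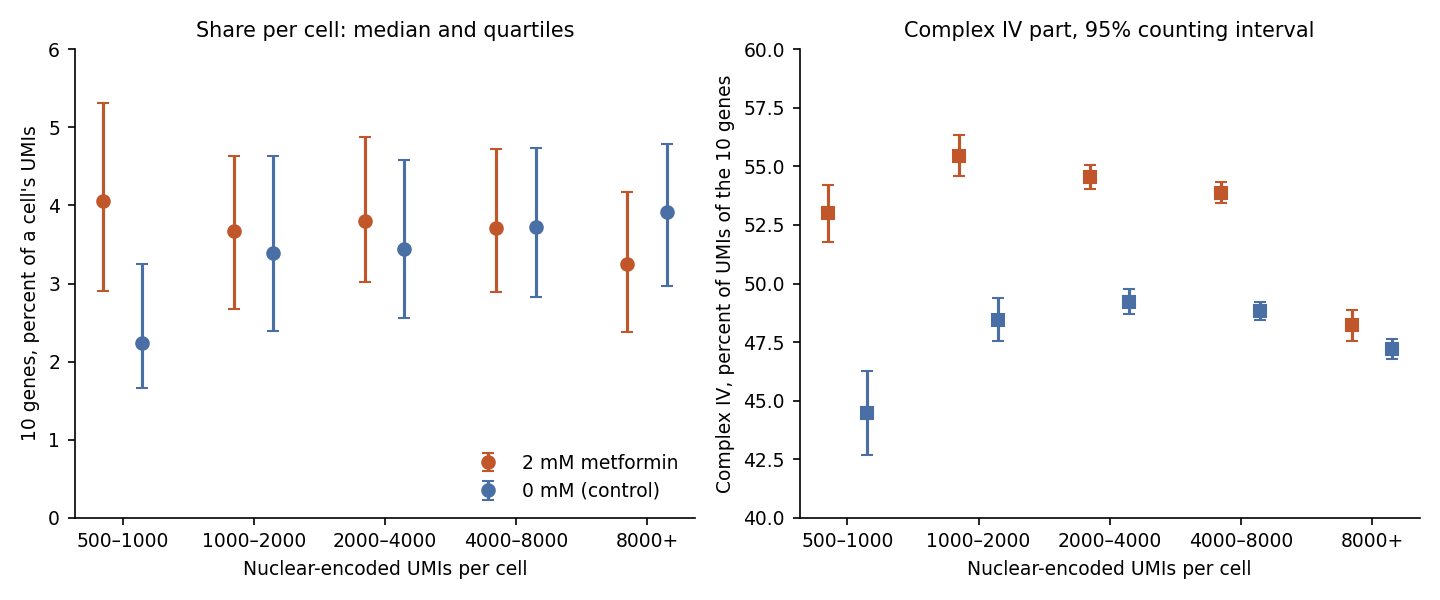
The members by cell depth, in bins of nuclear-encoded UMIs per cell, with metformin in orange left of control in blue. Left, the members' percent of a cell's UMIs as median (points) and quartiles (bars); right, the complex IV percent of the members' summed UMIs with its 95% counting interval, on an axis that starts at 40%. The quartile ranges overlap in every bin, and the medians are farthest apart in the shallowest, at 4.06% and 2.24%, whereas the complex IV points are apart in the first 4 bins and close in the deepest.

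Cell states were called without any mitochondrial gene, from nuclear UMIs thinned to 1000 per cell. A cell with at least 3 UMIs of G2/M genes was placed in G2/M, one with at least 3 UMIs of S-phase genes and no G2/M call in S, and the rest in a low-cycle state. This gave 376 G2/M, 57 S and 349 low-cycle cells in the metformin library and 526, 70 and 306 in the control library; 209 metformin and 98 control cells were too shallow. The members' share was 3.74%, 3.88% and 3.81% in G2/M, S and low-cycle cells of the metformin library, and 3.79%, 3.52% and 3.77% in those of the control library. The G2/M minus low-cycle difference was -0.07 points in the metformin library and 0.02 points in the control library, and it depended on how states were called: over other thinning depths, thresholds and another seed it ran from -0.32 to -0.11 points in the metformin library and from -0.35 to 0.08 points in the control library. Between libraries, the S cells differed by 0.35 points (0.20 to 0.50), and they are few.

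Complex IV took the larger part of the members' UMIs in the metformin library in each of these states. The difference was 5.38 points in G2/M cells (53.0% in the metformin library and 47.6% in the control library), 2.46 points in S cells (0.38 to 4.54) and 3.98 points in low-cycle cells (53.7% and 49.8%). The ratio of MT-CYB was 0.809 to 0.839 over the 3 states, and that of MT-ND2 0.805 to 0.914. MT-ND3 varied more, at 0.735 in G2/M cells and 1.42 in S cells, and it was 0.644 (0.594 to 0.698) in interferon-high cells. MT-ND5 had 1.16 in G2/M cells and 1.74 (1.49 to 2.04) in S cells. These values of MT-ND3 in interferon-high and MT-ND5 in S cells lie past 1.5-fold, which no member did over all cells. How often other genes passed that size in interferon-high or S cells was not computed. Whether these members stand out there from other genes was therefore not tested.

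**Figure D3:**
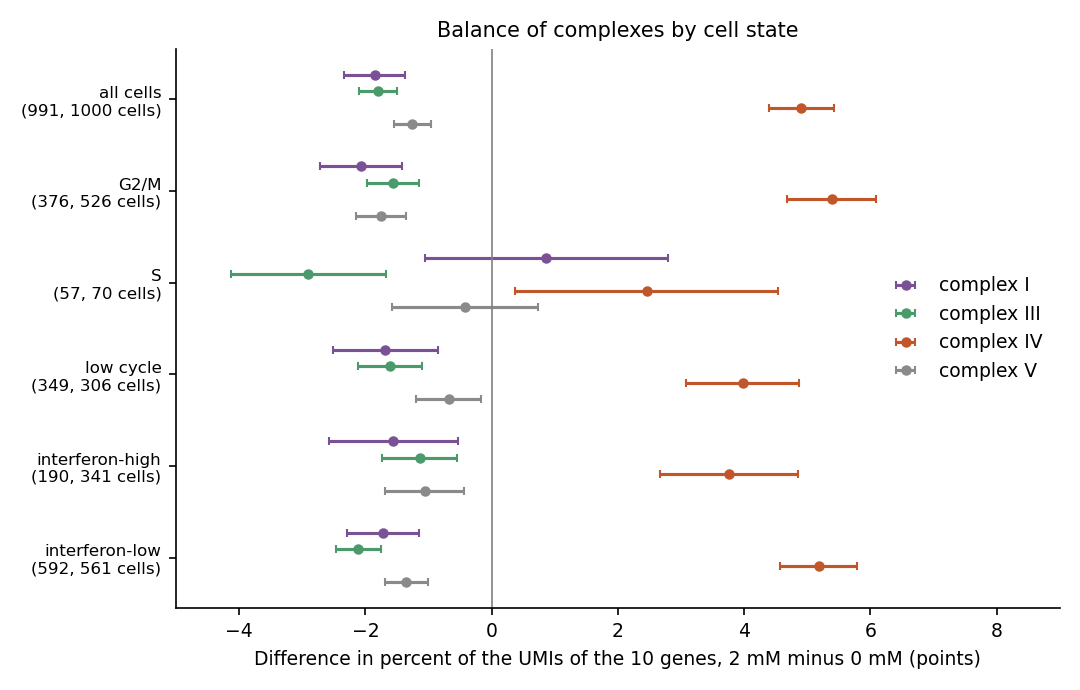
Difference between the libraries (metformin minus control, in percentage points) in the part of the members' UMIs held by complex I, III, IV and V, for all cells and by cell state, with joined 95% counting intervals. Numbers in brackets are the metformin and then the control cells. Complex IV lies right of 0 in all 6 rows, at 4.91 points over all cells and 2.46 points in S cells, and complex III lies left of 0 in all 6.

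Cells with many transcripts of interferon-response genes had a smaller share of the members, in both libraries. Interferons are secreted antiviral signals, and the list used holds 25 genes that respond to them, among them ISG15, the IFIT genes, MX1 and OAS1. A cell was called interferon-high at 5 or more UMIs of this list per 1000 nuclear UMIs, which held for 190 of 782 metformin cells (24.3%) and 341 of 902 control cells (37.8%). In the metformin library, members held 2.95% of the UMIs in interferon-high cells and 4.07% in interferon-low cells, a difference of -1.12 points (-1.18 to -1.06). In the control library, members held 3.21% in interferon-high cells and 4.06% in interferon-low cells (-0.86 points, -0.91 to -0.81). The list's own UMIs made up 2.15% of those in interferon-high cells of the metformin library and 1.84% in the control library. Free RNA can add interferon UMIs to any cell, and 20 metformin and 29 control cells lay exactly at the threshold of 5.

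The smaller share in interferon-high cells was found in each of the 3 cycle states and in the 4 depth bins from 1000 nuclear UMIs upward, in both libraries; shallower cells were not called. In G2/M cells the difference was -1.18 points in the metformin library and -0.57 points in the control library, and in low-cycle cells -1.09 and -1.32 points. In the bin of 1000 to 2000 nuclear UMIs it was -1.50 points in the metformin library and -1.14 points in the control library, and in the deepest bin -0.67 and -0.55 points. The median depth of the 2 classes was 3291 UMIs (interferon-high) and 3072.5 (interferon-low) in the metformin library, and 3437 and 3943 in the control library. At 0 and 1 interferon UMIs the share was 3.92% and 4.20% in the metformin library and 4.17% and 4.15% in the control library. At 2 to 4 and 5 to 9 it was 4.07% and 3.18% in the metformin library and 3.92% and 3.29% in the control library. It was lowest at 10 to 19, with 2.78% in the metformin library and 2.94% in the control library. At 20 or more it was 2.89% in the metformin library and 3.38% in the control library.

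All 10 members were lower in interferon-high than in interferon-low cells, in both libraries. Of all genes compared other than the list itself, 59.9% were lower in the metformin library and 60.9% in the control library. The members' median log2 ratio was -0.40 in the metformin library and -0.31 in the control library, against -0.09 and -0.11 for all genes. MT-CYB had 2231 CPM in interferon-high and 3448 CPM in interferon-low cells of the metformin library (ratio 0.647, 0.614 to 0.681), and 2794 and 4303 CPM in those of the control library (0.649, 0.627 to 0.673). MT-CO3 had a ratio of 0.630 in the metformin library and 0.798 in the control library. MT-ND4 had 0.777 in the metformin library and 0.841 in the control library. The complex IV part was 52.4% (interferon-high) and 53.4% (interferon-low) in the metformin library and 48.6% and 48.3% in the control library. Within strata of the metformin library it differed in both directions, at 51.5% (interferon-high) and 54.6% (interferon-low) in low-cycle cells and 57.4% and 55.2% at 1000 to 2000 nuclear UMIs.

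Between the libraries, the pooled interferon-low cells had 4.07% in 592 metformin cells and 4.06% in 561 control cells (0.00 points, -0.05 to 0.05). This pools differences of both signs: it was 0.29 points (0.19 to 0.39) at 2000 to 4000 nuclear UMIs and -0.41 points (-0.50 to -0.31) at 8000 and over, and 0.19 points in S and -0.18 points (-0.27 to -0.09) in low-cycle cells. Interferon-high cells had 2.95% in 190 metformin cells and 3.21% in 341 control cells (-0.26 points, -0.33 to -0.20). By cycle state, that difference was -0.59 points (-0.68 to -0.49) in G2/M, -0.25 points (-0.51 to 0.01) in S and 0.05 points (-0.04 to 0.15) in low-cycle cells. By depth, it was -0.49 points (-0.69 to -0.28) at 1000 to 2000 nuclear UMIs and 0.03 points (-0.09 to 0.16) at 2000 to 4000. In deeper cells it was -0.23 points (-0.33 to -0.12) at 4000 to 8000 and -0.53 points (-0.66 to -0.40) at 8000 and over. Complex IV differed in both classes, by 5.18 points in interferon-low and 3.76 points in interferon-high cells. Among interferon-high cells, the bin of 8000 and over (16 metformin and 29 control cells) was the stratum by depth and interferon in which complex IV was the smaller in the metformin library (-1.50 points, -3.67 to 0.67).

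**Figure D4:**
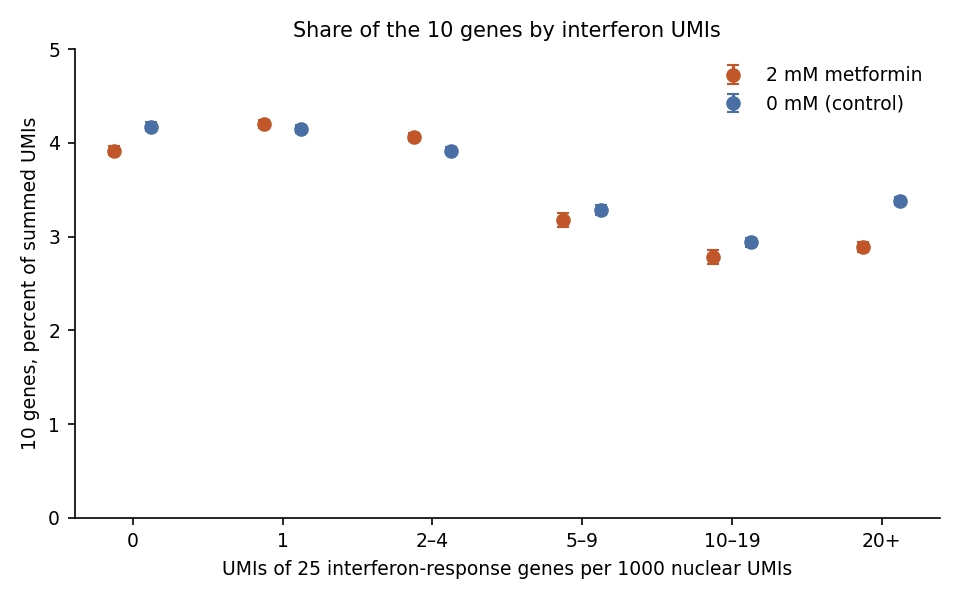
The members' percent of summed UMIs in cells grouped by their UMIs of 25 interferon-response genes per 1000 nuclear UMIs, with 95% counting intervals, metformin in orange left of control in blue. Cells with 0 to 4 such UMIs lie between 3.92% and 4.20% in both libraries, and cells with 5 or more lie between 2.78% and 3.38%.

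Within the members, the split between the shortest and the longest coding lengths partly followed the same split among nuclear genes of the same cell. For each cell the share of nuclear UMIs in genes with a coding length under 450 bases was computed (1006 genes with lengths from GENCODE release 29). This grouping was chosen after the data had been seen. Across 447 metformin and 543 control cells with at least 100 member UMIs, the part of MT-ND3 (346 bases) in the members' UMIs had a Spearman rho of 0.59 with that share in both libraries. The part of MT-CO1 (1542 bases) had -0.47 in the metformin library and -0.31 in the control library. The 4 longest members (MT-CYB, MT-ND4, MT-CO1 and MT-ND5) had a negative rho in both libraries, and the 4 shortest (MT-ND3, MT-ATP6, MT-CO2 and MT-CO3) a positive one. Of intermediate length, MT-ND1 had 0.13 in the metformin library and -0.02 in the control library, and MT-ND2 0.19 and 0.07. Apart from MT-ND3 and MT-CO1, values in the metformin library ran from -0.13 (MT-ND5) to 0.19 (MT-CO2). These values describe cells of 1 library each, which share depth and preparation, and what connects the measures was not tested.

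Single nuclear genes were also ranked by their rho with the ratio of MT-ND3 to MT-CO1 per cell, which restates the relation above gene by gene, since those under 450 bases are part of the short-gene share of the same cells. Among 230 nuclear genes with enough UMIs, TMSB10 (an actin-binding peptide), S100A6 (a calcium-binding protein), RPS29 (ribosomal) and ATP5E (a subunit of complex V) had the highest values, and FTL (ferritin light chain) and GAPDH (a glycolytic enzyme) were among the lowest. TMSB10 had a rho of 0.38 in the metformin library and 0.44 in the control library, and FTL one of -0.20 and -0.23. The 20 genes at the high end had a median coding length of 310.5 bases and the 20 at the low end 1051.5 bases, against 588 bases over the 223 genes with a length. These genes were named after their values had been seen.

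The difference in complex IV between the libraries was not the same along this measure. The same ranking of nuclear genes by the complex IV part itself had no common direction with coding length: across 223 genes the rho was 0.31 in the metformin library and -0.17 in the control library. With cells split into terciles by the share of nuclear UMIs in genes of short coding length, cut at 17.9% and 21.96%, complex IV differed by 8.44 points in the lowest tercile (55.9% in 279 metformin cells and 47.4% in 282 control cells). It differed by 5.18 points in the middle tercile (53.7% in the metformin library and 48.6% in the control library) and by 1.53 points in the highest (50.2% and 48.7%). The members' summed share differed by at most 0.07 points in these terciles, with intervals that included 0. MT-ND3 held 1.58% of the members' UMIs in the lowest tercile of the metformin library and 5.09% in the highest, and 1.98% and 6.01% in those of the control library.

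**Figure D5:**
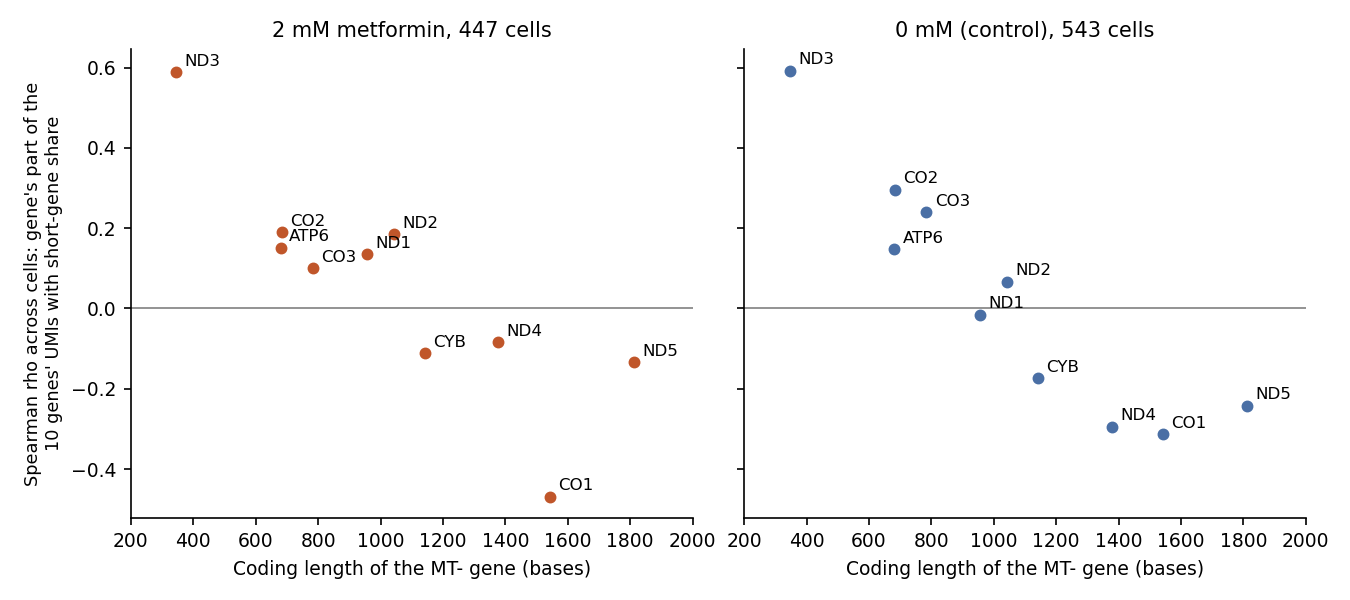
Coding length of each of the 10 genes (bases) against the Spearman rho, across cells, between the gene's part of the members' UMIs and the cell's share of nuclear UMIs in genes of short coding length. Metformin cells (447) are on the left in orange and control cells (543) on the right in blue. MT-ND3 stands highest at 0.59 in both panels, and the 4 longest genes lie below 0 in both.

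Other transcripts of the mitochondrial genome did not all follow the members. MT-ATP8, which shares its mRNA with MT-ATP6, had 616 CPM in the metformin library and 416 CPM in the control library, a ratio of 1.48 (1.39 to 1.58), whereas MT-ATP6 had a ratio below 1. MT-ATP8 took 16.3% (15.6% to 17.0%) of the UMIs of the pair in the metformin library and 10.4% (9.94% to 10.8%) in the control library. Given their 46 shared bases, how reads of the overlap were assigned bears on both genes. The other pair gave a different picture: MT-ND4L took 11.4% of the UMIs of MT-ND4L and MT-ND4 in both libraries, with 612 CPM in the metformin library and 634 CPM in the control library. MT-ND6, the 1 protein gene encoded on the light strand, had 209 CPM in the metformin library and 171 CPM in the control library (ratio 1.22, 1.10 to 1.36). The 19 rows of mitochondrial tRNA genes held 600 of the 3264343 UMIs of the metformin library and 791 of the 4403045 of the control library. These are raw counts, not scaled to library size.

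Mitochondrial rRNA stems from the same precursor as the members, and there were fewer rRNA UMIs per member UMI in the metformin library. The ratio was 0.37 in the metformin library and 0.43 in the control library. In cells with 500 to 1000 nuclear UMIs it was 0.71 in the metformin library and 3.74 in the control library, and in the deepest bin 0.31 and 0.30. Over all cells the log2 ratio was -0.20, and without cells in which rRNA exceeded 10% of the UMIs (28 metformin and 60 control cells) it was -0.10. The 2 rRNAs differed in direction: MT-RNR1 (12S) had 827 CPM in the metformin library and 621 CPM in the control library, a ratio of 1.33 (1.26 to 1.40), and MT-RNR2 (16S) had 13245 and 15329 CPM (0.864, 0.854 to 0.875).

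The nuclear-encoded partners of the members summed to a higher CPM in the metformin library for complexes I, III, IV and V. The members themselves did so for complex IV alone. Nuclear complex I subunits summed to 7422 CPM in the metformin library and 6730 CPM in the control library (ratio 1.10, 1.08 to 1.12). The ratio was 1.06 for those of complex III, 1.07 for complex IV and 1.06 for complex V. These sums depend on the library scaling. With TMM factors MT-ND1, which had the same CPM ratio of 1.06 as complexes III and V, stood at a log2 ratio of 0.00. Member UMIs per nuclear-encoded UMI of the same complex were 1.55 in the metformin library and 1.79 in the control library for complex I. They were 1.07 and 1.37 for complex III, 2.77 and 2.67 for complex IV, and 0.409 and 0.492 for complex V. These values leave out MT-ND4L and MT-ND6 of complex I. They also leave out MT-ATP8 of complex V, whose ratio was 1.48.

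Single nuclear subunits stayed mostly within 1.5-fold. Of 34 nuclear complex I genes compared, 22 had a ratio above 1, where 52.6% of all genes compared did. The median log2 ratio of these complex I genes was 0.05, against 0.02 for all genes compared. NDUFB2, an accessory subunit, was the 1 gene at least 1.5-fold higher, where 5.04% of all genes compared were, with 530 CPM in the metformin library and 302 CPM in the control library (1.76, 1.63 to 1.89). NDUFS7 (1.35) and NDUFS8 (1.31), which carry iron-sulfur clusters, followed, and NDUFA10 (0.845), NDUFB5 (0.858) and NDUFA9 (0.867) were lowest. All 3 complex II genes compared had ratios below 1: SDHB 0.950, SDHA 0.832 and SDHC 0.755.

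The counts for complexes III to V stand beside 52.6% of all genes compared with a ratio above 1. Of 8 complex III genes, 4 had a ratio above 1. UQCRFS1, the Rieske iron-sulfur protein, was highest at 1.47 (1.34 to 1.62), and the core proteins UQCRC1 (0.852) and UQCRC2 (0.853) were lowest. Of 11 complex IV genes, 7 had a ratio above 1, with COX5B (1.26), COX7B (1.25) and COX6B1 (1.23) highest and COX7C (0.949) lowest. Of 17 complex V genes, 10 had a ratio above 1. ATP5A1, the alpha subunit, had 1.43 and ATP5G3, which encodes the c subunit of the rotor, 1.40, whereas ATP5G2, which encodes the same c subunit, had 0.850. None of the genes of complexes II to V reached 1.5-fold, where 8.36% of all genes compared did.

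Genes that transcribe, maintain or process mitochondrial DNA and RNA were mostly too low to compare. Of 14 genes of mitochondrial transcription and DNA maintenance, 2 passed the minimum: SSBP1, the mitochondrial single-stranded DNA-binding protein, had 442 CPM in the metformin library and 300 CPM in the control library (1.48, 1.37 to 1.59), and TFAM, which packages mitochondrial DNA and starts its transcription, had 136 and 124 CPM (1.09, 0.960 to 1.24). Of 18 genes of mitochondrial RNA processing and stability, 8 passed and 6 of these had a ratio above 1, where 52.6% of all genes compared did. LRPPRC, which with SLIRP stabilizes mitochondrial mRNAs, had 106 CPM in the metformin library and 77.9 CPM in the control library (1.36, 1.16 to 1.58), and SLIRP had 348 and 315 CPM (1.11, 1.02 to 1.20). HSD17B10, a subunit of the mitochondrial RNase P, had 1.27, and REXO2, an exonuclease for short RNAs, was lowest at 0.853. None of the 6 nuclear regulators of respiration passed the minimum. PPARGC1A, the coactivator of mitochondrial biogenesis, had 39 UMIs (11.9 CPM) in the metformin library and 29 (6.59 CPM) in the control library. PPARGC1B, PPRC1 and ESRRA also had CPM ratios above 1. NRF1 (17 UMIs in the metformin library and 27 in the control library) and GABPA (33 and 63 UMIs) had CPM ratios below 1.

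Across cells, the nuclear genes whose counts went most with the members' UMIs per nuclear UMI were RPL23 (rho 0.21 in the metformin library and 0.27 in the control library), SAA1 (0.16 and 0.23), RPS4X (0.17 and 0.14), TMSB4X (0.13 and 0.21) and COX6B1 (0.13 and 0.15). RPL23 and RPS4X are ribosomal proteins, SAA1 is an acute-phase protein, TMSB4X binds actin and COX6B1 is a subunit of complex IV. Those that went most against it were IGFBP6 (rho -0.32 in the metformin library and -0.33 in the control library), ISG15 (-0.34 and -0.22), PRSS23 (-0.29 and -0.21), IFIT3 (-0.24 and -0.20) and IFIT2 (-0.19 and -0.19). ISG15, IFIT3 and IFIT2 belong to the interferon list, IGFBP6 binds insulin-like growth factors and PRSS23 is a serine protease. The ranking covered 230 genes in 782 metformin and 902 control cells, used counts thinned to 1000 nuclear UMIs, and took the weaker rho of the 2 libraries. These values are low and counts per cell are sparse, so they describe an order of genes and nothing more.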

How the data were processed

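The authors deposited whole UMI counts per gene and barcode, 1000 barcodes per library. Tools listed in the submitters' processing notes are bcl2fastq and STAR 2.5.0a, with hg19 as build. How barcodes were selected, UMIs collapsed and reads assigned to strand or to overlapping genes is not given in the sources used here. Nuclear copies of mitochondrial DNA could take member reads. The 13 rows of such rRNA-like genes (MTRNR2L) held 1340 UMIs in the metformin library and 1650 in the control library, not scaled to library size.

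Barcodes of 500 or more UMIs and 300 or more genes were summed to CPM with Python 3.11.15; ratios carry exact conditional (Clopper-Pearson) intervals and shares exact binomial ones, at 95%. Intervals of differences join the outer bounds of both. TMM factors came from edgeR 4.0.16. No doublet caller was run. Scripts were tested on simulated data. Members and gene lists were chosen with earlier results of these data known. Named genes were all members, the other mitochondrial genes, up to 3 highest and 3 lowest of each list, and the 5 nuclear genes most and least like the members in rho. No coordinates are given, since the annotation used for sequences and coding lengths (GENCODE 29) is of another build.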

Additional observations from a re-analysis of the deposited data

Results flagged for a closer look

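The difference in the members' summed share between the metformin and control libraries had opposite signs in cells of different depth. It was 1.14 points at 500 to 1000 nuclear UMIs and 0.37 points at 2000 to 4000, but -0.47 points at 8000 and over. It also had opposite signs in 2 cycle states, at 0.35 points in S cells and -0.052 points in G2/M cells. Split by interferon class, the S cells differed by -0.25 points in interferon-high (10 metformin and 26 control cells) and 0.19 points in interferon-low cells (47 and 44), so the pooled 0.35 points lies outside both, and the G2/M cells differed by -0.59 and 0.02 points. Each of the 5 unsplit counting intervals left out 0, that of the G2/M cells by less than 0.01 points. The difference between the strata was not tested, because there is 1 library per dose.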

How the results depend on the processing

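No paired analysis was possible because there is 1 library per dose. The count of members past 1.5-fold (0) and the sign of the complex IV difference held under all alternatives run over all cells. Complex IV differed by 5.56 points with the deepest 5% of barcodes left out and 6.84 points with every cell weighted equally, and, by terciles added after the data had been seen, by 8.44 points in the lowest and 1.53 points in the highest. The summed share differed by 0.16 points with the deepest 5% left out, 0.29 points with cells weighted equally, 0.23 points with depth bins weighted equally, 0.03 points at a minimum of 1000 UMIs, 0.02 points at 10% mitochondrially encoded UMIs or less and 0.02 points without rRNA-rich cells. In the shallowest bin it differed by 0.63 points without rRNA-rich cells. The log2 ratio of rRNA per member UMI was -0.17 with all barcodes, -0.23 at a minimum of 1000 UMIs, -0.10 at 10% mitochondrially encoded UMIs or less, -0.67 with depth bins weighted equally and -0.10 without rRNA-rich cells. The interferon-high minus interferon-low share was -0.97 points in the metformin library with thinning to 2000 UMIs, -0.92 with lower thresholds and -1.27 at 10% mitochondrially encoded UMIs or less. In the control library it was -0.72 with thinning to 500, -0.79 with thinning to 2000, -0.98 with another seed and -0.79 with higher thresholds. Leaving out rRNA-rich cells, and the limit of 10% for the interferon classes, were also chosen after seeing the data. The cause of these moves was not tested. Merging barcodes 1 base apart left 883 metformin cells of 991 and 931 control cells of 1000, and cannot change sums over all cells. The interferon-high minus interferon-low share was then -1.11 points in the metformin library and -0.84 points in the control library. Depth bins, per-cell medians, quartiles and SDs can change with merging and were not recomputed on the merged barcodes. Of the 90 ratios of single members under alternatives that could move them, 30 moved beyond their counting interval and none with an interval that left out 1 changed sign. Few cells stand behind the S state (57 and 70) and the deepest bin (53 and 108).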
